A study of Mus musculus with 6 samples.

Results

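The genes described here are nuclear genes of respiratory chain complexes I to V in mouse liver with and without Selenoo, which encodes SelO, a selenoprotein of mitochondria. They were picked by symbol, which leaves out subunit genes with other names such as Cyc1 of complex III: the Nduf, Sdh, Sdhaf, Uqcr, Uqcc, Cox4 to Cox8 and Atp5 genes, 100 of the 16140 genes in the deposited table. By complex, 46 belong to complex I, 8 to complex II, 11 to complex III, 18 to complex IV and 17 to complex V; 85 encode subunits and 15 encode assembly factors. Ndufa4 and its paralog Ndufa4l2 were placed with complex IV, where Ndufa4 is now assigned. The table lists no gene of mitochondrial DNA, so the subunits encoded there are not analysed here. Expression was set between 3 libraries of knockout liver (genotype Selofl/fl Alb-Cre) and 3 libraries of control liver (genotype Selofl/fl, without Cre), all from untreated mice on a normal diet. Both groups carry the floxed alleles. Alb-Cre is driven by the albumin promoter and acts in hepatocytes, so other liver cells keep Selenoo, and an effect of Cre itself cannot be told apart from loss of the gene. The labels give no age or sex and do not tie libraries to separate mice, so p-values speak only of the spread between these libraries.

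The respiratory chain sits in the inner mitochondrial membrane. Complex I takes electrons from NADH and complex II from succinate, ubiquinone carries them to complex III and cytochrome c to complex IV, which reduces oxygen. Complexes I, III and IV pump protons, and complex V, the ATP synthase, makes ATP as the protons flow back. Each complex has core subunits that carry out its reaction, and assembly factors that help to build it and are not part of the finished enzyme. All but complex II, whose 4 subunits are all core, also have accessory subunits that stabilise them. Hepatocytes depend on this chain for glucose, urea and lipid metabolism.

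Total estimated counts ran between 15550287 and 18680196 per library. Selenoo averaged 7.76 ± 1.52 CPM (counts scaled to library size) in knockout and 91.7 ± 6.50 CPM in control libraries (SD, n = 3 each), a log2 fold change of -3.56 ± 0.17 (SE; adjusted p = 4.64e-05, edgeR's quasi-likelihood test). Of 12173 genes with enough counts to be tested, 181 passed an adjusted p of 0.05, 94 of them higher and 87 lower in knockout. The tissue label fits its defining markers: 7 hepatocyte genes summed to between 127000 and 148000 TPM (a level per transcript length) in knockout and between 131000 and 158000 TPM in control libraries. Markers of T and NK cells summed to 1.03 to 2.56 TPM in knockout and 3.15 to 6.72 TPM in control libraries. Only 2 of these markers were tested, and 0 passed. Endothelial markers summed to 125 to 142 TPM in knockout and 149 to 151 TPM in control libraries, with 1 of the 5 endothelial markers lower in knockout. Sums of the Kupffer cell, stellate, cholangiocyte, B cell, fat and red blood cell markers overlapped between groups. The part of these cell types in the respiratory chain results was not tested. In bulk liver, fewer cells of a type and less RNA per cell cannot be told apart.

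The respiratory chain took 3.40% ± 0.153 of all TPM in knockout and 3.47% ± 0.468 in control libraries (SD, n = 3 each). Per length, subunit mRNAs lay far above those of assembly factors, with a median over genes of 260 TPM for the 85 subunits and 13.7 TPM for the 15 assembly factors, averaged over the 6 libraries. Among subunits the median was 557 TPM in complex V, 418 TPM in complex III, 297 TPM in complex IV, 177 TPM in complex I and 147 TPM in complex II. The highest level was that of Cox6a1, the common isoform of a small subunit of complex IV, at 1770 TPM. In complex II, which has only 4 subunits, the range was narrow, between 119 TPM for Sdhd and 266 TPM for Sdhb. TPM of the shortest mRNAs divides by a very small effective length, for example 106 bases for Ndufa3, and is less certain for them.

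**Figure D1:**
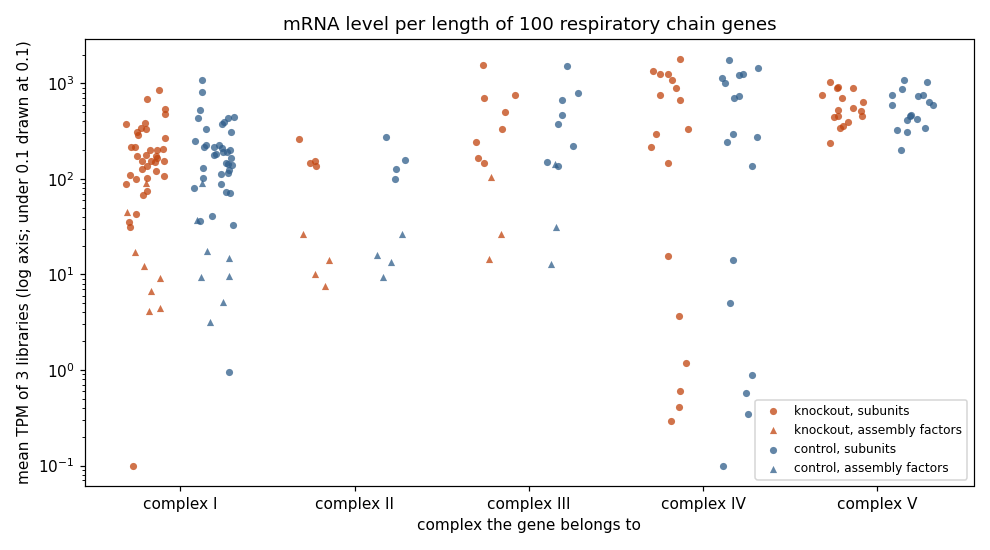
Mean TPM of each of the 100 genes over 3 knockout (left of each pair) and 3 control libraries, on a log axis, by complex; circles are subunits and triangles assembly factors. Assembly factors lie below most subunits in complexes I to III, and the low circles of complex IV are isoforms of other tissues. The lowest is Cox4i2, with means of 0.293 TPM in knockout and 0.0967 TPM in control libraries. Means under 0.1 TPM are drawn at 0.1.

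The genes lie on 19 chromosomes, and promoter letters known from nuclear genes of mitochondria were common among them. RefSeq promoters on GRCm38.p6, 250 bases before to 50 after the start, were found for 83 of the 100 genes, 88 promoters in all. The NRF1 motif (GCGCA, any 1 base, then GCGC), searched like the others on both strands, was in 26.1% of these promoters (23 of 88), against 4.60% of all 32851 promoters of the same length and 9.58% of those of tested genes. The GABP motif CCGGAAG was in 25.0% (22 of 88), against 8.86% of all promoters and 16.9% of those of tested genes. The YY1 motif AAGATGGCG was in 9.09%, against 1.40% of all promoters and 2.92% of those of tested genes. The CRE motif TGACGTCA was in 4.55%, against 1.79% and 2.81%, and the ERR motif TCAAGGTCA in 2.27%, against 0.423% and 0.287%. No searched motif contains another, and a match says only that these letters are present. Fold changes were close with and without either of the common motifs: tested genes with an NRF1 match had a median log2 fold change of -0.049 and those without one -0.092, and for GABP the medians were -0.096 and -0.081. Only 2 of the 83 genes hold the ERR motif, Sdhd and Atp5g3. The 250 bases before the start of 3 genes are shown: Sdhd, the subunit gene with the smallest p (chr9:50603850-50604099, minus strand), Uqcc2, the gene with the largest fold change (chr17:27133892-27134141, minus strand), and Cox6a1, the highest in TPM (chr5:115348959-115349208, minus strand). They read 5′ to 3′ towards the gene, and capitals mark NRF1 matches and, as CTTCCGG, GABP matches on the opposite strand.
Sdhd: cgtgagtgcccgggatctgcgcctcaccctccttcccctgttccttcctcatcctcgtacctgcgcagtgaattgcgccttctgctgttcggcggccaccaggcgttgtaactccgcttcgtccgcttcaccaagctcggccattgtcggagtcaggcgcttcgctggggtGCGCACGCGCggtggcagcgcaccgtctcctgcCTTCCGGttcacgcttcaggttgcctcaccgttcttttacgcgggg
Uqcc2: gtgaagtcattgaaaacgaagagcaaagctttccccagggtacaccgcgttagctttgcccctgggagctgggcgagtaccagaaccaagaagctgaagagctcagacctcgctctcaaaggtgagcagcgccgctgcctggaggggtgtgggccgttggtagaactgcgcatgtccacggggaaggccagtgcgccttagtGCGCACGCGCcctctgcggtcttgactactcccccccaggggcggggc
Cox6a1: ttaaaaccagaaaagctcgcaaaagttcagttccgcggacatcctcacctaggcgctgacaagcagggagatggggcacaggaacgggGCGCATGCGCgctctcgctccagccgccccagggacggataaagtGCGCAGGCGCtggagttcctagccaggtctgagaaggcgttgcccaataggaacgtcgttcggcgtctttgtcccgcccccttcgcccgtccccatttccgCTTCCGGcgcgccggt
The NRF1 match began 79 bases before the start in Sdhd and 48 bases before it in Uqcc2, with the same letters, GCGCACGCGC. Cox6a1 has a pair of NRF1 matches, 162 and 117 bases before the start. The GABP match lies nearer the start than the NRF1 matches in both genes that have one, at 46 bases in Sdhd and 16 bases in Cox6a1.

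None of the respiratory chain genes passed the test between knockout and control livers. Of the 100 genes 95 had enough counts to be tested, and edgeR's quasi-likelihood test at an adjusted p of 0.05 called 0 of them, against 1.49% of all genes tested (0.772% higher and 0.715% lower in knockout). The smallest adjusted p was 0.158, for the assembly factor Ndufaf3. At an unadjusted p under 0.05 there were 6 genes, which is 6.32% of the 95 against 18.5% of all genes. Of these 3 were higher and 3 lower, 3.16% each, against 9.27% higher and 9.26% lower among all genes. The number under 0.05 depended on the setting. It was 15 (15.8%, against 20.5% of all genes) with each library's trend on length and GC content removed. With a library left out it ran from 1 without knockout replicate 1 (1.05%, against 13%) to 21 without control replicate 3 (22.1%, against 27.1%). Groups did not overlap in 11 genes (11.6%, against 25.2% of all genes): knockouts lay above all controls in 8 (8.42% against 13.3%) and below in 3 (3.16% against 11.9%). DESeq2 also called 0 of the 95, against 5.26% of all genes, with 7 at an unadjusted p under 0.05 (7.37%, against 16.4% of all genes). By the q-value of the authors' deposited table, 0 of the 100 genes passed 0.05, against 3.47% of all genes with a q-value, and 7 of the 100 had a p-value under 0.05 there, against 12.7% of all genes.

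Fold changes were small and their intervals bounded. Log2 fold changes, knockout over control, ran between -0.52 and 0.48, with a median of -0.089 over the 95 genes and -0.018 over all genes tested. The 95% interval stayed within a 2-fold change in either direction for 86 genes (90.5%, against 78.8% of all genes). The other 9, Ndufa3, Ndufa5, Ndufb4, Ndufc1, Sdhaf3, Uqcc2, Cox7a1, Ndufa4l2 and Atp5md, had intervals that reached it, so a change of that size is within the error for them. The sign was negative in 67 of 95 genes (70.5%, against 52.2% of all genes). Core subunits had a positive sign in 13 of 22 and a median of 0.068, accessory subunits a negative sign in 46 of 58 and a median of -0.149, and assembly factors a negative sign in 12 of 15 and a median of -0.222. The median was -0.131 for complex I, -0.126 for complex II, 0.056 for complex III, -0.077 for complex IV and -0.009 for complex V.

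**Figure D2:**
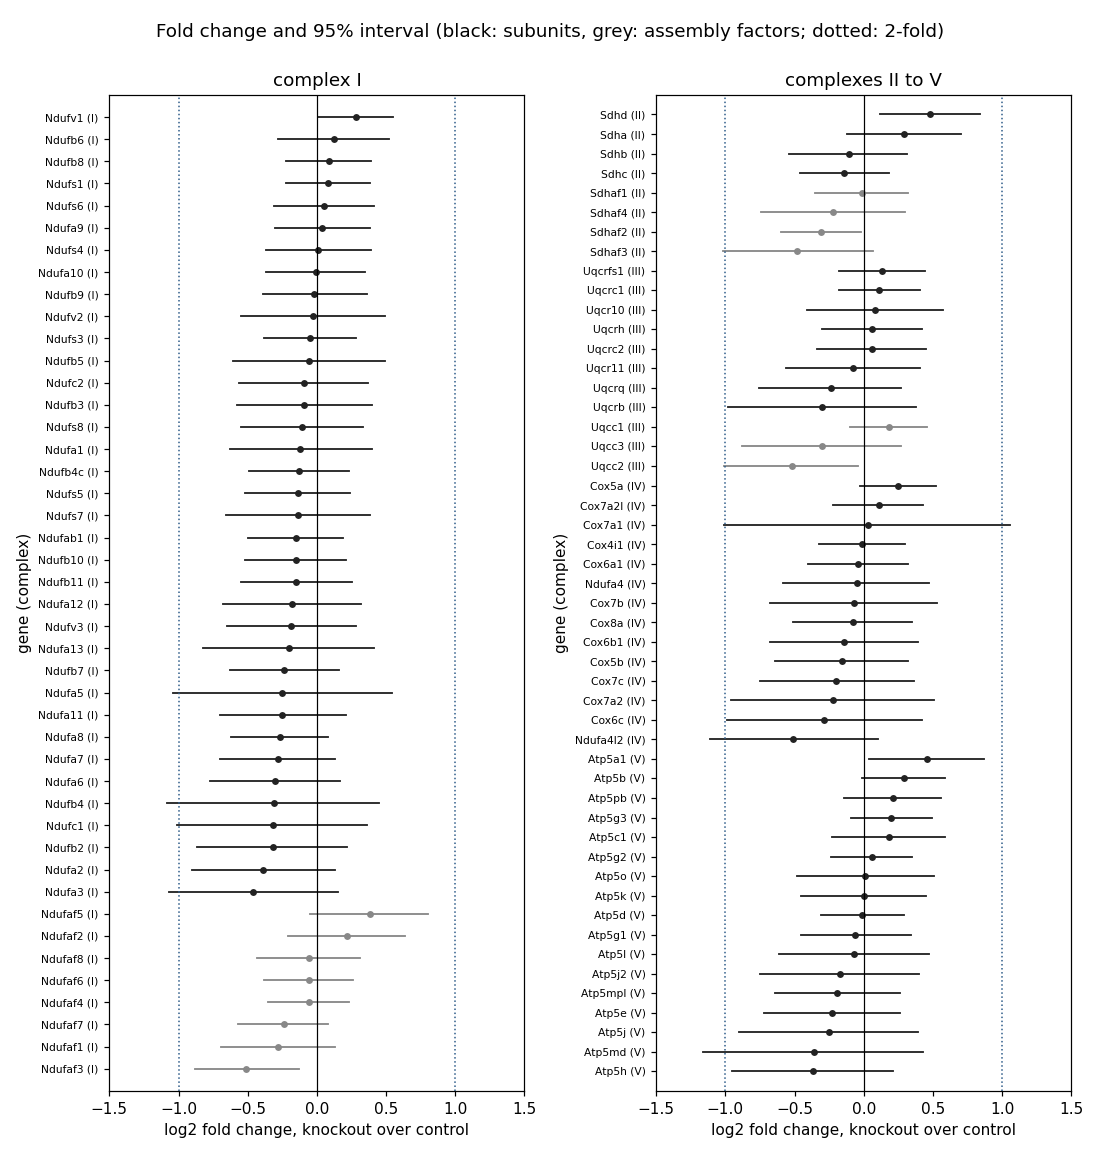
Log2 fold change of knockout over control (x axis) with its 95% interval for the genes tested, sorted within complex; black marks subunits, grey assembly factors, and dotted lines a 2-fold change. The points lie between -0.52 and 0.48, and all but 9 intervals stay between the dotted lines.

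Summed by complex, the knockout libraries lay inside the range of the controls in all 5 complexes. Complex I subunits and factors summed to 8228, 9072 and 8367 TPM in knockout and to 10509, 9027 and 8120 TPM in control libraries. Complex II summed to 728, 777 and 762 TPM in knockout and to 653, 726 and 791 TPM in control libraries. The lowest control was replicate 1 for complex II, where that replicate was the highest for complex I. Complex III summed to 4456, 4676 and 4497 TPM in knockout and to 5378, 4288 and 3921 TPM in control libraries. Complex IV summed to 9829, 10615 and 9701 TPM in knockout and to 11781, 10147 and 8739 TPM in control libraries. In both, control replicate 1 stood highest and control replicate 3 lowest, with the knockouts close together between them. Complex V summed to 9605, 10607 and 10060 TPM in knockout and to 11446, 9510 and 9067 TPM in control libraries, in the same order of controls.

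That order of the controls ran through most of the genes. Control replicate 1 was the highest of the 6 libraries in 76 of 95 genes (80%, against 27.3% of all genes tested), and control replicate 3 was the lowest in 50 (52.6%, against 15.2%). Relative to the control mean, the median gene stood at -0.20, 0.05 and -0.01 log2 in knockout replicates 1, 2 and 3, against 0.36, -0.10 and -0.26 in control replicates 1, 2 and 3, while the median of all genes tested lay within 0.01 of the control mean in each library. The standard deviation of log2 CPM was larger among controls than among knockouts in 85 of 95 genes (89.5%, against 70.3%), with a median of 0.13 among knockouts and 0.35 among controls. The split was widest in complex IV, with medians of 0.53 in control replicate 1 and -0.43 in control replicate 3, and narrow in core subunits, with 0.18 and -0.08. Without control replicate 1 the median log2 fold change of the 95 genes was 0.15, and without control replicate 3 it was -0.246.

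**Figure D3:**
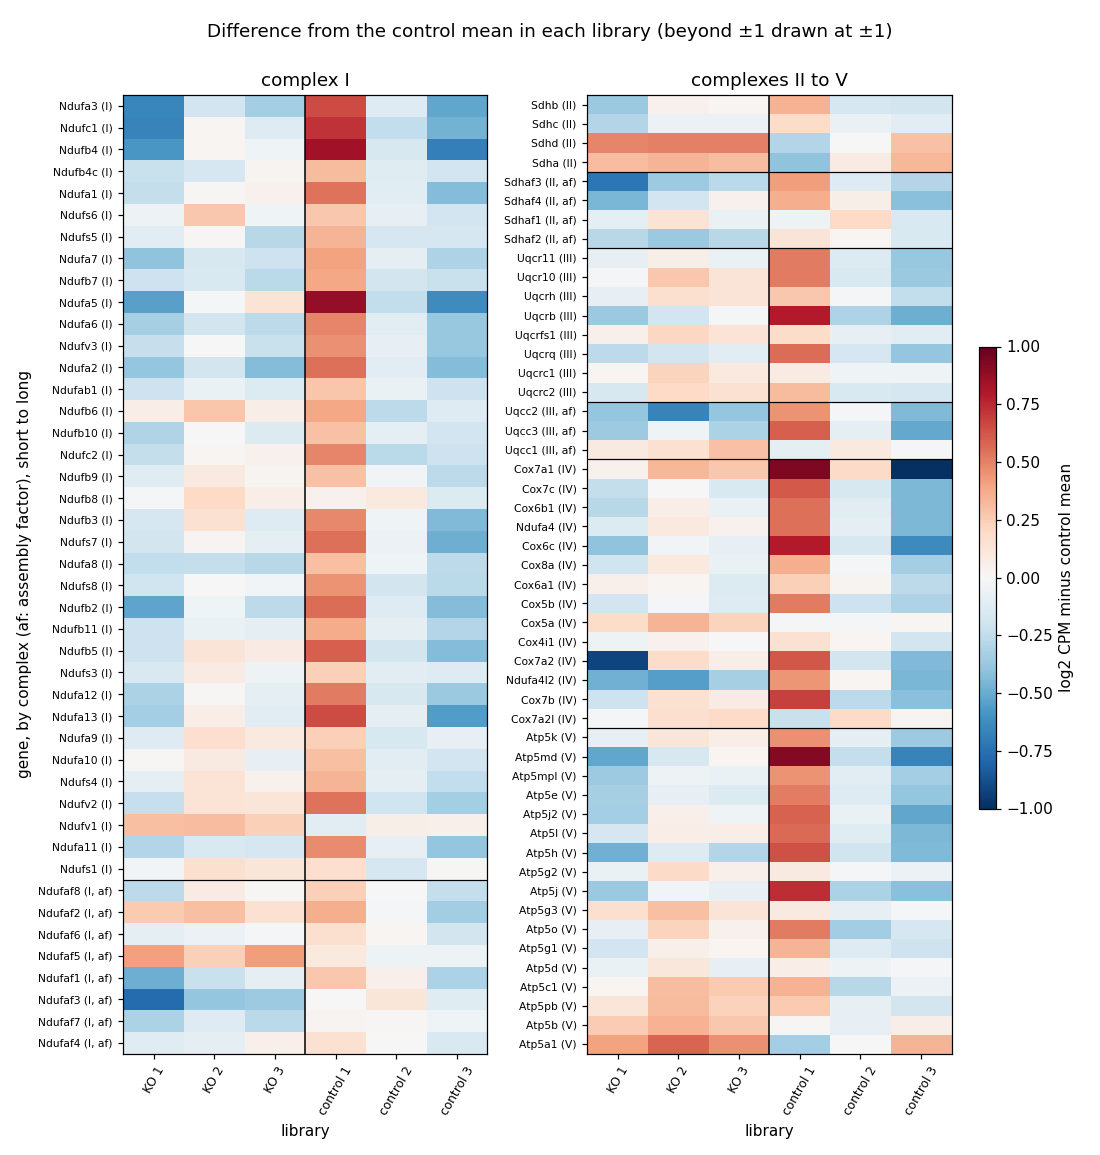
Log2 CPM minus the control mean (colour; red higher, blue lower) for the genes tested (rows, by complex, then subunits and assembly factors, short to long mRNA) in each library (columns, knockouts left). Control replicate 1 is red and control replicate 3 blue in most rows, and Sdhd, Sdha, Ndufv1, Atp5b and Atp5a1 run against that pattern in control replicate 1 or stand higher in the knockouts.

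The position of control replicates 1 and 3 followed the length of the mRNA. The effective length implied by the deposited FPKM has a median of 488 bases for these genes and 2601 bases for all genes tested, and it is 920 bases for core and 323 bases for accessory subunits. Across the 95 genes, the difference of control replicate 1 from the mean of the 6 libraries had a Pearson r of -0.58 and a Spearman rho of -0.56 with log2 effective length, and that of control replicate 3 an r of 0.57 and a rho of 0.56. Knockout replicate 1 had an r of 0.34, knockout replicate 2 an r of 0.07, knockout replicate 3 an r of 0.23 and control replicate 2 an r of -0.02. These are correlations across genes that share libraries, and genes are not independent replicates. Over all 12173 genes the values for control replicates 1 and 3 were -0.28 and 0.23, so other short mRNAs shifted in the same sense. Genes with an effective length under 1000 bases had a median log2 fold change of -0.135 among the 70 tested respiratory chain genes of that length and -0.177 among 1273 other genes, and genes of 1000 bases or more 0.056 among 25 respiratory chain genes and 0.004 among 10805 other genes. With each library's trend on GENCODE transcript length, not effective length, and on GC content removed, the median of the 95 genes was 0.044. It was 0.181 for core subunits, 0.023 for accessory subunits and -0.077 for assembly factors, and 0 genes were called. Log2 fold changes then had a Pearson r of -0.25 with log2 GENCODE length (94 genes) and 0.11 with log2 effective length (95 genes). What sets the length trend of each library was not tested.

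**Figure D4:**
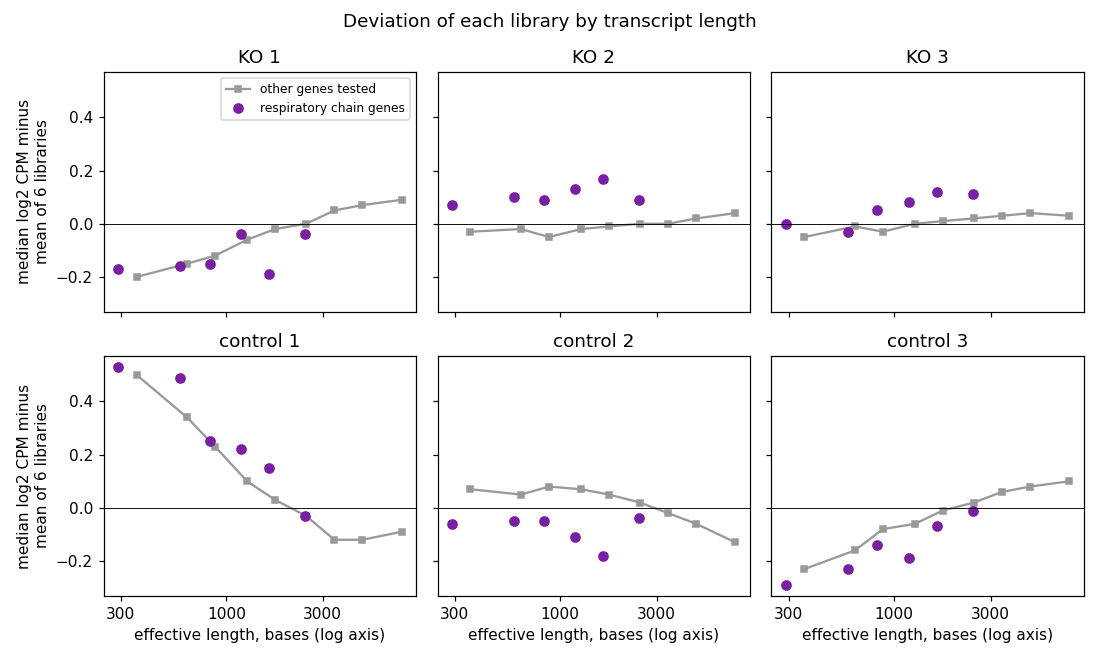
Median log2 CPM minus the mean of the 6 libraries (y axis) by effective length (x axis, log scale), 1 panel per library, for respiratory chain genes (purple, 49 genes in the shortest bin and 3 to 15 in the others) and other genes tested (grey). In the shortest bin the respiratory chain median is 0.53 and that of other genes 0.50 in control replicate 1, and -0.29 and -0.23 in control replicate 3.

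In complex I, the entry point of NADH electrons, 0 of 45 tested genes passed, and 35 had a negative sign. Ndufv1, the subunit that binds FMN and oxidises NADH, had 97.7, 98.5 and 94.2 CPM in knockout and 73.7, 83.1 and 82.1 CPM in control libraries. All knockouts lay above all controls, with a log2 fold change of 0.28 (95% interval 0.01 to 0.55; adjusted p = 0.254, edgeR's test). Ndufaf3, which acts early in complex I assembly, had 5.32, 6.97 and 7.10 CPM in knockout and 9.19, 9.97 and 8.40 CPM in control libraries. Its knockout values all lay below the controls, with knockout replicate 1 the lowest, at a log2 fold change of -0.51 (-0.88 to -0.13). A pair of further assembly factors, singled out after their values were seen because their groups did not overlap, modify arginines of complex I subunits. Ndufaf5, a hydroxylase, had 3.60, 3.20 and 3.64 CPM in knockout and 2.89, 2.58 and 2.59 CPM in control libraries, a log2 fold change of 0.38. Ndufaf7, a methyltransferase, had 6.02, 6.91 and 6.25 CPM in knockout and 7.72, 7.60 and 7.36 CPM in control libraries, a log2 fold change of -0.24, so assembly factors of the same complex lay on opposite sides. Ndufa3, the accessory subunit with the highest TPM in the complex, had 59.7, 82.1 and 74.2 CPM in knockout and 147, 85.5 and 65.2 CPM in control libraries. Its groups overlapped, with the knockouts inside the range of the controls except for replicate 1, which was the lowest of all.

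In complex II, the succinate dehydrogenase that also belongs to the citric acid cycle, 0 of 8 genes passed. Sdhd, a membrane anchor that helps to form the ubiquinone site, had 114, 115 and 115 CPM in knockout and 66.1, 81.2 and 99.3 CPM in control libraries. The knockouts were nearly equal and above every control, and the controls were spread, with replicate 1 lowest. The log2 fold change was 0.48 (95% interval 0.12 to 0.84) (adjusted p = 0.163, edgeR's test), and without control replicate 3 it was 0.64 and the adjusted p 0.0393. Sdha, the flavoprotein that oxidises succinate, was singled out after its values were seen as the other subunit with a positive sign. It had 318, 325 and 318 CPM in knockout and 194, 270 and 321 CPM in control libraries, where control replicate 3 reached the knockout level. Sdhb, the iron-sulfur subunit and the highest of the complex in TPM, had 142, 189 and 186 CPM in knockout and 234, 163 and 162 CPM in control libraries, with the groups overlapping and a log2 fold change of -0.11. Among the assembly factors, Sdhaf2, needed to attach FAD to Sdha, had 17.8, 16.7 and 17.8 CPM in knockout and 23.7, 22 and 19.5 CPM in control libraries. Every knockout lay below every control, at a log2 fold change of -0.31 (-0.60 to -0.02) and an adjusted p of 0.234. Sdhaf3, which helps to mature the iron-sulfur subunit, had 2.47, 3.20 and 3.41 CPM in knockout and 5.57, 3.77 and 3.37 CPM in control libraries, which overlapped. All 4 assembly factors of the complex had a negative sign, with a median of -0.268, beside a median of 0.089 for the 4 subunits. Sdhaf1 was close to no change, at -0.01, and 2 of the 4 subunits had a negative sign too.

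In complex III, which passes electrons from ubiquinol to cytochrome c, 0 of the 11 genes picked by symbol passed, and their groups overlapped in all 11. Cyc1, the cytochrome c1 subunit, does not bear a symbol of the pattern and was kept with the electron carriers. It had 162, 175 and 166 CPM in knockout and 144, 128 and 138 CPM in control libraries. Its knockouts lay above its controls, at a log2 fold change of 0.29 (95% interval 0.01 to 0.58; adjusted p = 0.248, edgeR's test), and it was singled out after its values were seen. Uqcc2, a factor that stabilises newly made cytochrome b, had 19.5, 16.0 and 19.5 CPM in knockout and 35.0, 25.5 and 18.8 CPM in control libraries. Control replicate 3 lay among the knockout values, and control replicates 1 and 2 stood above all of them. The log2 fold change was -0.52 (95% interval -1.01 to -0.04) (adjusted p = 0.232, edgeR's test). Without control replicate 3 it was -0.72 and the adjusted p 0.0496, and removing the length and GC trend gave -0.25. Uqcc1, its partner on cytochrome b, had 26.6, 27.7 and 30.5 CPM in knockout and 23.5, 26.8 and 24.7 CPM in control libraries, a log2 fold change of 0.18. Uqcc3, also needed to assemble the complex, had 11.2, 14.1 and 11.6 CPM in knockout and 22, 13.5 and 10.2 CPM in control libraries, a log2 fold change of -0.30. The partners thus had opposite signs, and both pairs of groups overlapped. Uqcr11, the small accessory subunit with the highest TPM in the complex, had 219, 241 and 220 CPM in knockout and 330, 210 and 178 CPM in control libraries, with all knockouts inside the range of the controls.

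In complex IV, the cytochrome c oxidase, 0 of 14 tested genes passed. Cox5a, a nuclear subunit on the matrix side, had 111, 124 and 114 CPM in knockout and 96.7, 97.6 and 99.5 CPM in control libraries. It was the 1 gene of the complex whose groups did not overlap, with a log2 fold change of 0.25 (95% interval -0.03 to 0.52) (adjusted p = 0.313, edgeR's test). Cox6a1 had 468, 458 and 412 CPM in knockout and 533, 461 and 377 CPM in control libraries. Cox6c, an accessory subunit, had 152, 196 and 190 CPM in knockout and 348, 180 and 129 CPM in control libraries. For both, every knockout lay between control replicates 1 and 3, and the controls of Cox6c alone spanned more than the whole range of the knockouts. The log2 fold changes were -0.04 and -0.29.

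Subunits of complex IV come in tissue isoforms, and the common one of each pair made up most of the mRNA in both groups. Cox4i2, Cox6a2 and Cox8b, the isoforms of lung or muscle, and Cox6b2, that of testis, were too low to be tested, with 0 to 9 counts in every library. Cox4i2 held 0.0387% of the summed TPM of its pair in knockout and 0.0138% in control libraries, Cox6a2 0.0215% and 0.0489%, Cox6b2 0.114% and 0.0310%, and Cox8b 0.0491% and 0.0432%. Counts this low do not allow a comparison, since 3 counts, the most that a count of 0 allows, correspond to 0.155 to 0.201 CPM. Striated muscle markers were near 0 as well, with 0 to 0.23 TPM summed over 8 genes in knockout and 0.04 to 0.88 TPM in control libraries. Cox7a1, the heart and muscle isoform of Cox7a2, was the exception, with 7.22% ± 2.12 of the pair's TPM in knockout and 5.31% ± 2.06 in control libraries (SD, n = 3 each). In CPM it had 1.29, 1.6 and 1.53 in knockout and 2.48, 1.45 and 0.519 in control libraries, a range among controls that took in all knockouts. Its share is uncertain, as its effective length is 118 bases. Cox7a2 had 51.4, 110 and 102 CPM in knockout and 150, 85.6 and 71.9 CPM in control libraries, with knockout replicate 1 the lowest of the 6. Ndufa4l2, a paralog of Ndufa4 known for its induction by hypoxia, held 0.318%, 0.255% and 0.312% of the pair's TPM in knockout and 0.392%, 0.454% and 0.405% in control libraries. Its shares did not overlap between groups, while its CPM did, with 2.04, 1.94 and 2.27 in knockout and 3.96, 2.95 and 2.07 in control libraries, at a log2 fold change of -0.51 and an adjusted p of 0.346. For Cox4i1, Cox6b1, Cox8a, Cox7b and Ndufa4, the main forms in liver, the log2 fold changes lay between -0.14 and -0.01, and all 5 turned positive, at 0.05 to 0.18, with the length and GC trend removed.

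In complex V, the ATP synthase, 0 of 17 genes passed, and the catalytic head had the largest positive differences. Atp5a1, its alpha subunit, had 759, 861 and 791 CPM in knockout and 454, 572 and 728 CPM in control libraries. Atp5b, the catalytic beta subunit, had 1170, 1240 and 1180 CPM in knockout and 985, 924 and 1030 CPM in control libraries. Every knockout lay above every control for both, and control replicate 3 was the nearest. The log2 fold changes were 0.46 (95% interval 0.04 to 0.87) and 0.29 (-0.01 to 0.59) (adjusted p = 0.227 and 0.292, edgeR's test). Atp5a1 and Atp5b have effective lengths of 2178 and 1625 bases, long for this set of genes. With the length and GC trend removed, their log2 fold changes were 0.49 and 0.32 (adjusted p = 0.147 and 0.174, edgeR's test). The c subunit of the membrane ring is encoded by 3 genes whose mature protein is the same. Atp5g3 had 198, 218 and 193 CPM in knockout and 189, 167 and 175 CPM in control libraries, a log2 fold change of 0.20 with an adjusted p of 0.432. It held 37.9% ± 1.66 of the TPM of the 3 genes in knockout and 34.7% ± 1.93 in control libraries, Atp5g1 31.4% ± 1.39 and 34.2% ± 3.52, and Atp5g2 30.7% ± 0.577 and 31.1% ± 1.77 (SD, n = 3 each), so the 3 genes contributed in like parts in both groups. Atp5j2, the f subunit and the most abundant per length, had 155, 204 and 191 CPM in knockout and 297, 187 and 137 CPM in control libraries. The knockouts lay within the range of the controls, with a log2 fold change of -0.17.

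**Figure D5:**
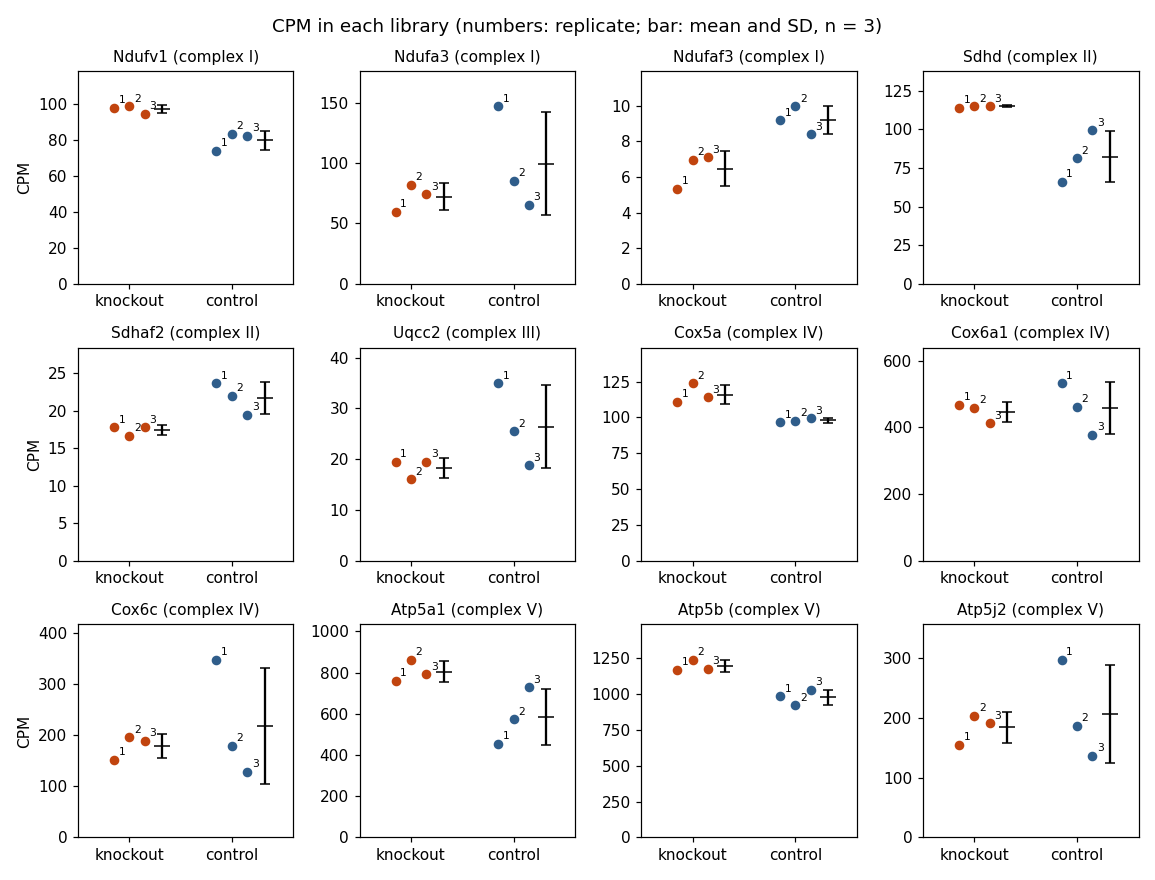
CPM (y axis, from 0) of 12 genes in each library, knockout left, with replicate numbers and the mean and SD (n = 3) beside each group. Sdhd, Atp5a1, Atp5b, Ndufv1 and Cox5a stand above the controls and Ndufaf3 and Sdhaf2 below them, while in Cox6a1, Cox6c and Atp5j2 the controls alone span the range of the knockouts.

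The Ndufb4 gene has near-identical copies in the table, and reads may be split between them. Ndufb4 held 61.0% ± 4.59 of the TPM of its 3 copies in knockout and 61.9% ± 8.22 in control libraries, and Ndufb4c 39.0% ± 4.59 and 37.9% ± 8.08 (SD, n = 3 each). Ndufb4b had 0 counts in the knockout libraries and 3, 0 and 6 in the controls, so it was not tested.

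Of the 11 genes with groups apart, 8 were higher, and 6 of these are core subunits. Among them are Ndufv1, Sdhd, Atp5a1, Atp5b and Atp5g3. Another is the accessory subunit Cox5a, and another the assembly factor Ndufaf5. The 3 that were lower are assembly factors (Ndufaf3, Ndufaf7 and Sdhaf2). Groups were apart in 6 of 22 core subunits, 4 of 15 assembly factors and 1 of 58 accessory subunits, beside 25.2% of all genes tested. By effective length, they were apart in 9 of 25 respiratory chain genes of 1000 bases or more and 2 of 70 shorter ones. Among other genes these counts were 2804 of 10805 and 252 of 1273. The respiratory chain counts describe genes that did not pass the test, and no difference between roles or lengths was tested.

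Genes that build or feed the chain without bearing its names were described through 9 lists, of which 135 of 138 genes in the table were tested. Of these 1 rose and 0 fell, which is 0.741% called, against 1.49% of all genes tested (0.772% higher). The gene that rose was Ppargc1a, the coactivator that raises expression of respiratory genes and of gluconeogenesis in liver. It had 9.83, 10.7 and 11.7 CPM in knockout and 4.36, 4.34 and 5.50 CPM in control libraries, with the groups well apart. Its log2 fold change was 1.18 ± 0.16 (SE; adjusted p = 0.0131, edgeR's quasi-likelihood test). The adjusted p was 0.0623 without knockout replicate 2, 0.0582 without knockout replicate 3, 0.0509 without control replicate 2 and 0.0533 with limma on log2(FPKM + 0.1). Among 19 nuclear regulators of respiratory genes tested, 1 rose (5.26%, against 1.49% of all genes tested) and 7 had an unadjusted p under 0.05 (36.8%, against 18.5%). Their median log2 fold change was 0.295, beside -0.018 for all genes tested. Pprc1, a relative of Ppargc1a, lay on the other side, with 9.51, 9.71 and 13.8 CPM in knockout and 16.6, 16.7 and 19.4 CPM in control libraries (log2 fold change -0.68, adjusted p = 0.0892). Esrra, a nuclear receptor that works with Ppargc1a on these genes, had 42.3, 41.4 and 39.2 CPM in knockout and 32.6, 29.2 and 30.9 CPM in control libraries (log2 fold change 0.41, adjusted p = 0.113). Sirt3, a mitochondrial deacetylase, had 81.3, 82.9 and 81.7 CPM in knockout and 57.5, 62.6 and 62.6 CPM in control libraries (log2 fold change 0.43, adjusted p = 0.104). Groups were apart in all 3, as in 25.2% of all genes tested, but none passed edgeR's test in the main run. Sirt3 passed it with the length and GC trend removed. Esrra and Sirt3 were singled out after their values were seen. Other regulators of the list lay on both sides. For example, Myc stood at 1.86 with overlapping groups and Gabpb1 at -0.23 (adjusted p = 0.113 and 0.43, edgeR's test). The Ppargc1a result thus stood beside 0 called genes in complexes I to V, and no link between them was tested.

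In the other lists 0 genes passed. Of 13 electron carriers and feeders, 4 had an unadjusted p under 0.05 (30.8%, against 18.5% of all genes tested) and the median was 0.16. Nnt, the transhydrogenase that makes NADPH from NADH with the proton gradient, had 86.6, 106 and 70.9 CPM in knockout and 35.1, 60.8 and 41.8 CPM in control libraries, a log2 fold change of 0.94 ± 0.22 (SE; adjusted p = 0.0736, edgeR's test). Its groups did not overlap, though both were spread. Gpd2, which passes electrons of glycerol 3-phosphate to ubiquinone, had 27.6, 23.6 and 20.3 CPM in knockout and 13.4, 13.2 and 19.7 CPM in control libraries (log2 fold change 0.63, adjusted p = 0.13). Of 13 genes of ubiquinone synthesis, Coq10a and Coq10b, whose proteins bind ubiquinone, had the smallest p, with log2 fold changes of 0.42 and 0.60 and adjusted p of 0.114 and 0.148. Of 28 further assembly genes of complex IV the median was -0.209, and the pair with the smallest p had opposite signs, -0.70 for Coa4 (adjusted p = 0.128) and 0.38 for Coa5 (adjusted p = 0.19). Of 11 further assembly genes of complex I the smallest p was that of Nubpl, which delivers iron-sulfur clusters to the complex, at 0.63 (adjusted p = 0.178), and of 22 genes of haem and iron-sulfur supply that of Alad, an enzyme of haem synthesis, at -0.40 (adjusted p = 0.146). Among 4 genes of complex III assembly Bcs1l, which inserts the Rieske protein, stood at -0.29 (adjusted p = 0.279), and among 6 of complex V assembly Atpaf2, a chaperone of the alpha subunit, at 0.27 (adjusted p = 0.51). Of 20 genes that transcribe and copy mitochondrial DNA the median was -0.167, and the smallest p was that of Top1mt, the mitochondrial topoisomerase, at -0.33 (adjusted p = 0.238).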

How the data were processed

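Bulk poly(A) RNA-seq of mouse liver, in 3 knockout and 3 control libraries, was analysed from the gene table of the series. Per the labels' protocols, mRNA was captured with oligo(dT), fragmented and primed with random hexamers. HISAT2, Bowtie2, RSEM 1.3.1 and GRCm38 were used per the submitters' processing notes; the strand setting is not given in the sources used here. Per the file headers, the authors deposited estimated counts, FPKM and TPM per gene and library, along with p-values, q-values and log2 fold changes of their own comparison. The control columns are named wild type, but their labelled genotype is floxed without Cre.

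Estimated counts (4.70% to 5.12% not whole) were rounded, filtered with filterByExpr, scaled by TMM and tested with the quasi-likelihood test of edgeR 4.0.16 in R 4.3.3, over all 12173 genes with Benjamini-Hochberg adjustment at 0.05. CPM use TMM-scaled library sizes, and log2 CPM a prior count of 2. Effective length is what the deposited counts and FPKM imply. The 6 libraries differed from one another beyond sampling noise (chi-square at least 20 times its degrees of freedom). A floor of 3 counts covers counting error only. Deviations of same-numbered libraries from their group means correlated at -0.16, -0.08 and -0.08, which cannot tell whether replicate numbers pair the libraries.

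Alternatives were other scalings and filters, the replicate number as a block, length and GC trends removed (5 spline degrees of freedom each, GENCODE lengths for 98.7% of tested genes), each library left out, DESeq2 1.42.0, limma 3.58.1 on log2(FPKM + 1) or log2(FPKM + 0.1), and an adjusted p of 0.1. The trend on effective length was added after seeing the data. Named genes were any called, the 3 with the smallest p and the highest TPM in each complex, and tissue isoforms. Gene groups, lists and motifs were chosen with earlier results of these data known. Gene positions are RefSeq's on GRCm38.p6. The fitting script was tested on simulated data. An item that the naming rule picked is not reported here.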

Additional observations from a re-analysis of the deposited data

How the results depend on the processing

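The absence of called respiratory chain genes held under every alternative run except the one that left out control replicate 3: leaving out each library in turn gave 0 to 2 (Sdhd and Uqcc2), and their median log2 fold change between -0.246 and 0.15. Over all genes, 181 calls became 330 without the low-count filter, 325 with the length and GC trend removed, 353 with it removed on effective length, 87 with the replicate block, 100 with the replicate block and that trend removed, 634 with DESeq2, 117 and 112 with limma on log2(FPKM + 1) and log2(FPKM + 0.1), and 513 at an adjusted p of 0.1; leaving out each library gave 43 to 668. The share of calls that were higher in knockout was 51.9%, and 40.2% with limma on log2(FPKM + 0.1). Among the pathway genes outside the complexes, 1 call became 2 without the filter (Nnt joined). It became 2 with the length and GC trend removed, where Sirt3 joined on either length and Nnt with the replicate block. It became 4 with DESeq2 (Nnt, Pprc1 and Sirt3 joined), 0 with limma on log2(FPKM + 0.1) and 3 at an adjusted p of 0.1. With each library left out it ran from 0 to 5. Deviations of same-numbered libraries from their group means correlated at -0.16, -0.08 and -0.08. With 3 libraries a group, these values cannot tell whether replicate numbers pair the libraries. The replicate block changed no call among the respiratory chain genes.

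Direction across settings was followed for named genes only, not for all 95. Among those followed, the genes whose direction turned had reported log2 fold changes between -0.30 and 0.03. Cox7a1 was -0.02 under upper-quartile scaling, and Cox7b and Ndufa4 were both 0.01 with the replicate block. With the length and GC trend removed, with that and the replicate block, and with effective length, in that order, Sdhb was 0.02, 0.02 and 0.02, Uqcr11 0.21, 0.21 and 0.21, Cox6a1 0.19, 0.19 and 0.19, Cox4i1 0.18, 0.18 and 0.18, Cox6b1 0.05, 0.06 and 0.08, Cox7b 0.09, 0.11 and 0.07, Cox8a 0.16, 0.16 and 0.16, and Ndufa4 0.15, 0.15 and 0.16; Atp5j2 was 0.05 with effective length. With each library left out, Atp5j2 ranged from -0.40 to 0.18, Cox4i1 from -0.09 to 0.07, Cox6a1 from -0.16 to 0.09, Cox6b1 from -0.34 to 0.19, Cox6c from -0.55 to 0.22, Cox7a1 from -0.39 to 0.58, Cox7a2 from -0.42 to 0.16, Cox7b from -0.27 to 0.35, Cox8a from -0.23 to 0.12, Ndufa4 from -0.25 to 0.27, Sdhb from -0.20 to 0.08, Uqcc3 from -0.52 to 0.05 and Uqcr11 from -0.25 to 0.23. The cause of these shifts was not tested. With 3 libraries a group, 9 of the 95 genes had intervals that reached a 2-fold change, and the 5 untested genes had too few counts for a comparison.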
